A study of Homo sapiens with 16 samples.

Results

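The genes described here are 10 genes of lipid droplets and triglyceride metabolism: PLIN2, PLIN3, CIDEB, HILPDA, G0S2, DGAT1, DGAT2, LPIN1, PNPLA2 and PNPLA3. They were taken by symbol from a list set by function, which was chosen with earlier results of these data known. All 10 were found among the 60623 genes listed. They were followed in an integrated gut-liver chip, a microfluidic device in which Caco-2 cells (a human colorectal adenocarcinoma line used as a model of gut epithelium) and HepG2 cells (a human hepatocellular carcinoma line used as a model of hepatocytes) grew in separate chambers. Each line was kept alone (mono-culture) or in a loop of medium shared with the other line (co-culture), each with 1 mM free fatty acids (FFA; palmitic and oleic acid) or without FFA (control). The duration of 1 day is that of the labels. The study also describes a longer treatment, and the sample titles begin with LTC, a code that its text does not explain. Which treatment these libraries come from was not checked beyond the label. This gave 8 groups of 2 libraries, 16 in all. Both lines are tumour lines. The study's methods describe its mRNA-seq as done in independent experiments, but the labels do not tie the 2 libraries of a group to separate chips or experiments, so the p values measure the spread between these libraries, part of which may be technical.

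Cells store surplus fatty acids as triglycerides in lipid droplets, which bud from the endoplasmic reticulum and are covered by coat proteins of the perilipin and CIDE families. LPIN1 makes diacylglycerol from phosphatidic acid, and DGAT1 and DGAT2 add the last fatty acid to form triglyceride. PNPLA2, also called adipose triglyceride lipase, starts the breakdown of the stored triglyceride, and G0S2 and HILPDA are small proteins that inhibit it. Fatty liver, the condition the chip was built to model, is a build-up of such droplets in hepatocytes.

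The coat gene PLIN2 and the lipase inhibitor G0S2 had the smallest adjusted p of the 10 genes between the lines, in opposite directions, and the bases upstream of their start sites are therefore shown. The sequences are the 250 bases before the start site that RefSeq gives on GRCh38.p14, 5′ to 3′ on the strand of the gene. Capitals mark matches, on either strand, to ACGTG (the core shared by the E-box and the hypoxia response element), AGGTCA (a nuclear receptor core site), GGGCGG (the Sp1 box) or TATAAA (the TATA box).
PLIN2, chr9:19127493-19127742, minus strand: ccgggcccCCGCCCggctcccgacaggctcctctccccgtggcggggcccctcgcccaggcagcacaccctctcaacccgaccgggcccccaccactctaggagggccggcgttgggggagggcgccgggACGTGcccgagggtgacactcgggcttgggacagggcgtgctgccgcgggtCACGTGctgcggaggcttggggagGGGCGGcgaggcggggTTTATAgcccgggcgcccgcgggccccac
G0S2, chr1:209675162-209675411, plus strand: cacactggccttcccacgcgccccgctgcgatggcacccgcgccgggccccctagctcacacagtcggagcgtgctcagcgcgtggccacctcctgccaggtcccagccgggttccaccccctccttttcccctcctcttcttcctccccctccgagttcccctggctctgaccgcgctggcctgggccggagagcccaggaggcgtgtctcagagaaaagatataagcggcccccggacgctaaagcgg
The PLIN2 window held 3 matches to ACGTG, 2 of them on opposite strands of the same CACGTG, 2 to GGGCGG and 1 to TATAAA. The G0S2 window held 0 matches to these 4 motifs. Over all 35116 RefSeq promoters of this length, 18.5% held ACGTG, 12.1% AGGTCA, 42.6% GGGCGG and 10.7% TATAAA. Promoter entries were matched for 6 of the 10 genes (PLIN2, PLIN3, CIDEB, G0S2, LPIN1 and PNPLA2). The PLIN3 window held 2 matches to GGGCGG and the PNPLA2 window 1 to GGGCGG and 1 to AGGTCA. The 3 windows of LPIN1 held 4, 1 and 0 matches to GGGCGG, the 2 windows of CIDEB held 2 and 0, and neither gene had a match to the other motifs. A match describes these letters and does not show a bound site.

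The libraries of Caco-2 held 353871 to 974654 reads, and those of HepG2 held 49634 to 1657430. The HepG2 co-culture FFA libraries were the shallowest, with 147096 and 49634 reads, so that 3 reads, taken here as the floor of detection, stood for 20.4 and 60.4 CPM (the share of a library that a gene's reads make up, written on 1 scale for all libraries), against 1.81 to 10.9 CPM in the other HepG2 libraries. Mitochondrial genes held 2.73% to 3.97% of reads in Caco-2 and 6.29% to 10.6% in HepG2. Of 12 hepatocyte markers, 11 were higher in every HepG2 library than in every Caco-2 library, the exception being TTR, while the summed level of the list was 2573 to 3596 CPM in Caco-2 libraries and 22667 to 47366 CPM in those of HepG2. Of 12 intestinal markers, 4 (CDH17, PHGR1, MUC13 and CEACAM5) were higher in every Caco-2 library, and 5 were at 0 in every HepG2 library. The intestinal marker CDX1 was at 0 also in Caco-2. The summed intestinal list, in which S100P and TFF3 were abundant in both lines, was 511 to 778 CPM in Caco-2 and 625 to 1222 CPM in HepG2.

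The clearest pattern was a difference between the lines. Averaged over the 4 conditions, 5 of the 10 genes differed between HepG2 and Caco-2 at an adjusted p under 0.05 (limma on log2(CPM + 1), adjusted over 17544 genes). PLIN2 and CIDEB were higher in HepG2, and G0S2, DGAT1 and DGAT2 were higher in Caco-2. Of all genes tested, 30.3% passed the same threshold, so lines this different in origin differed at many genes. The median difference over the 10 genes was 0.39 on the log2 scale, against -0.16 over all genes. In bulk libraries such as these, fewer cells expressing a gene and less RNA per cell cannot be told apart.

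**Figure D1:**
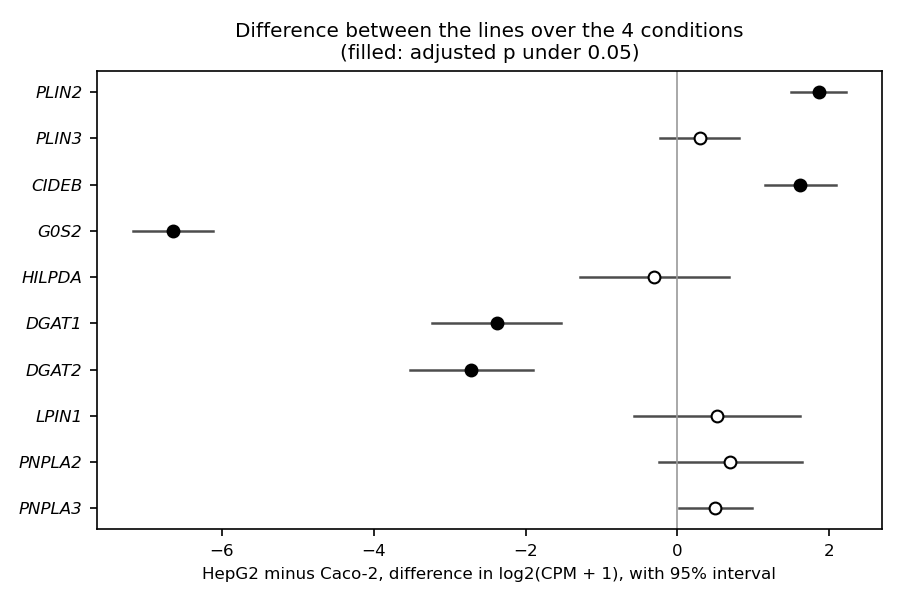
Difference between HepG2 and Caco-2 averaged over the 4 conditions, in log2(CPM + 1), with its 95% interval, for each of the 10 genes. Filled points passed an adjusted p of 0.05: PLIN2 and CIDEB lie to the right (higher in HepG2), and DGAT1, DGAT2 and G0S2 lie to the left (higher in Caco-2).

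Among the droplet coat genes, PLIN2 (ENSG00000147872, chromosome 9: 19108375 to 19149290, minus strand) codes for perilipin 2, the coat protein found on droplets of most cell types. Its level was 34.1 CPM at the lowest, 65.5 at the median and 82.1 at the highest in the 8 Caco-2 libraries, and 154 at the lowest, 192 at the median and 397 at the highest in the 8 HepG2 libraries. The ranges of the lines did not overlap. The difference was 1.86 on the log2 scale (SE 0.17, a fold of 3.63, adjusted p = 1.1e-06).

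CIDEB (ENSG00000136305, chromosome 14: 24305187 to 24311430, minus strand), a coat protein of liver and gut that acts in droplet fusion and in the loading of lipoproteins with lipid, showed the same order. It lay between 24.6 and 41.8 CPM in Caco-2, with a median of 37.9, and between 62.6 and 242 CPM in HepG2, with a median of 110. The lowest HepG2 library stood above the highest Caco-2 library, and the difference was 1.62 (SE 0.22, a fold of 3.06, adjusted p = 5.1e-05). For PLIN3 (ENSG00000105355, chromosome 19: 4838341 to 4867694, minus strand), a perilipin that binds early droplets from the cytosol, the lines overlapped, with 29.7 to 54.4 CPM in Caco-2 and 17.6 to 141 CPM in HepG2. Its difference of 0.29 had a 95% interval of -0.23 to 0.81 (adjusted p = 0.40).

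The inhibitor G0S2 (ENSG00000123689, chromosome 1: 209675412 to 209676390, plus strand) was close to absent from HepG2. The 8 Caco-2 libraries held 29 to 118 reads each, at 80.1 to 153 CPM. In HepG2, 6 libraries held 0 reads and the co-culture control libraries held 1 read each, so that the sum was 2 reads of 4953377 against 577 of 4888028 in Caco-2. The ratio of the summed shares was 292 (95% exact interval 80.6 to 2420, counting error only). On the log2 scale the fitted difference was -6.64 (SE 0.25, adjusted p = 1.1e-10), a value that depends on the pseudocount because HepG2 is near 0. In the shallow HepG2 co-culture FFA libraries, the exact 95% interval of a count of 0 reached 25.1 and 74.3 CPM. The second of these overlapped the intervals of the lower Caco-2 libraries (54.9 to 118 and 61.8 to 102 CPM), so that library alone does not separate the lines. The other inhibitor, HILPDA (ENSG00000135245, chromosome 7: 128455849 to 128458418, plus strand), known as a gene induced by hypoxia, did not show this. It had 4.70 to 15.9 CPM in Caco-2, from 2 to 11 reads, and 0 to 16.2 CPM in HepG2, from 0 to 14 reads. Its difference of -0.30 (95% interval -1.29 to 0.68, adjusted p = 0.64) turned to 0.18 when HepG2 co-culture FFA replicate 2 was left out, and passed at -0.79 (adjusted p = 0.022) when replicate 1 of that group was left out.

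Both enzymes of the last step of triglyceride synthesis had fewer reads in HepG2. DGAT1 (ENSG00000185000, chromosome 8: 144314584 to 144326910, minus strand) had 71 reads in the Caco-2 libraries, with 5 to 16 in each (8.23 to 19.8 CPM), and 17 in HepG2, with 0 to 7 in each (0 to 9.29 CPM). DGAT2 (ENSG00000062282, chromosome 11: 75759512 to 75801535, plus strand) had 68 reads in Caco-2, with 2 to 19 in each (5.65 to 19.5 CPM), and 17 in HepG2, of which 15 came from the co-culture control libraries. For each gene the highest HepG2 library reached just above the lowest Caco-2 library. The differences were -2.38 for DGAT1 (SE 0.40, adjusted p = 0.00036) and -2.71 for DGAT2 (SE 0.38, adjusted p = 7.0e-05). Their size depends on the pseudocount, and over 28 alternatives lay between -3.70 and -1.36 for DGAT1 and between -4.48 and -1.43 for DGAT2. Both genes had 0 reads in the HepG2 co-culture FFA libraries, whose floors of 20.4 and 60.4 CPM lie above the Caco-2 levels. When all libraries were thinned to 49634 reads, DGAT1 no longer passed (adjusted p = 0.11), while DGAT2 did. LPIN1 (ENSG00000134324, chromosome 2: 11677595 to 11827409, plus strand), which acts a step earlier, had 1.98 to 14.8 CPM in Caco-2 and 0 to 29.1 CPM in HepG2. Its difference was 0.52 (95% interval -0.58 to 1.61, adjusted p = 0.47). It passed when HepG2 co-culture FFA replicate 2 was left out (1.00, adjusted p = 0.038) and when the co-culture FFA groups of both lines were left out (1.06, adjusted p = 0.043).

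The lipase PNPLA2 (ENSG00000177666, chromosome 11: 818914 to 825573, plus strand) was at the edge of detection in both lines, with 11 reads in all of Caco-2 and 19 in all of HepG2. No difference was detectable at this depth (0.70, 95% interval -0.24 to 1.64, adjusted p = 0.26). PNPLA3 (ENSG00000100344, chromosome 22: 43923792 to 43964488, plus strand), a droplet protein of the same family, had 17.3 to 41.6 CPM in Caco-2 and 14.1 to 121 CPM in HepG2, with medians of 29.4 and 35.0. Its difference was 0.50 (SE 0.22, adjusted p = 0.11). It passed when HepG2 co-culture FFA replicate 1 (0.62, adjusted p = 0.026) or HepG2 mono-culture FFA replicate 1 (0.62, adjusted p = 0.044) was left out, and its adjusted p ranged from 0.026 to 0.76 over 28 alternatives.

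**Figure D2:**
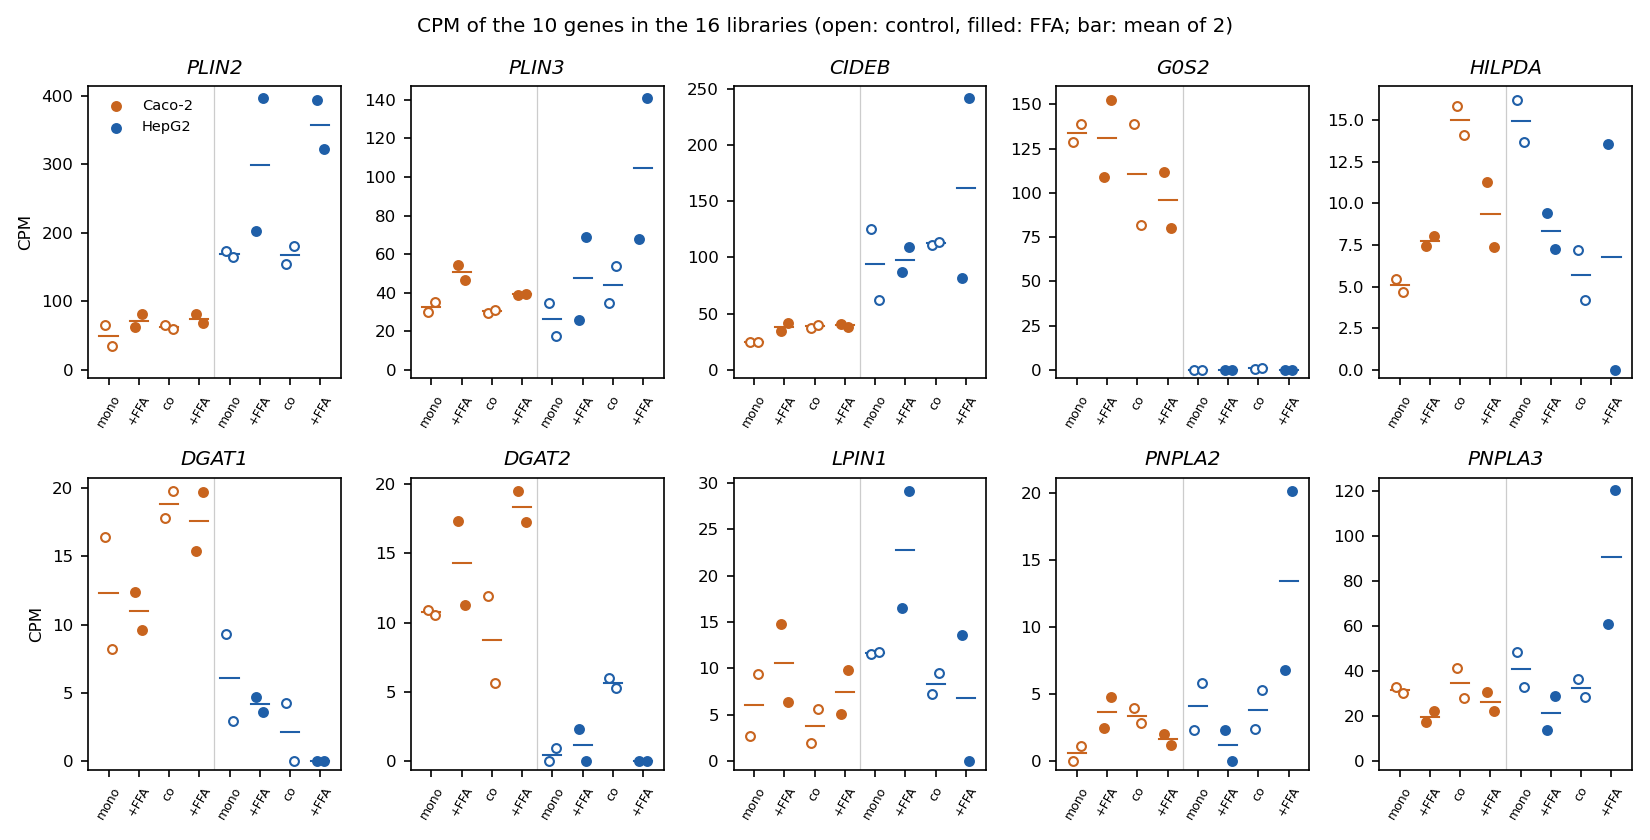
CPM of the 10 genes in each of the 16 libraries, with a linear axis of its own for each gene. Open points are control libraries, filled points are FFA libraries and short bars are the means of 2 libraries. PLIN2 and CIDEB lie higher in every HepG2 library, and G0S2 lies at 80.1 CPM or more in Caco-2 and at 1.06 CPM or less in HepG2.

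In the wider pathway, genes passed in both directions. Of 46 further genes of droplet coats and formation, triglyceride synthesis and lipolysis, 41 were tested, of which 9 were higher and 13 were lower in HepG2, with a median difference of -0.14. Over all genes 30.3% passed in either direction and the median was -0.16. By list, 6 were higher and 6 lower of 14 droplet coat and formation genes, 2 were higher and 4 lower of 15 triglyceride synthesis genes, and 1 was higher and 3 lower of 12 lipolysis genes. HSD17B11, a droplet-bound dehydrogenase with the highest CPM of its list in both lines (not corrected for length), had a mean of 181 ± 33.0 CPM in Caco-2 and 481 ± 109 CPM in HepG2 (SD, n = 8; difference 1.40, adjusted p = 9.8e-07). The carboxylesterases CES1 and CES2, which hydrolyse esters and drugs, went opposite ways. CES1 was higher in Caco-2 (difference -3.38, adjusted p = 5.8e-05), and CES2 was higher in HepG2 (4.08, adjusted p = 1.2e-05). MOGAT3, which makes diacylglycerol from monoacylglycerol, was higher in Caco-2 (difference -1.78, adjusted p = 0.00088). LPIN2, a relative of LPIN1, had a difference of 0.22 (adjusted p = 0.78).

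The second question was the response to FFA. In HepG2, PLIN2 was at 174 and 164 CPM in the mono-culture control libraries and at 203 and 397 CPM in the mono-culture FFA libraries. In co-culture it was at 154 and 181 CPM without FFA and at 394 and 322 CPM with FFA. All 4 FFA libraries stood above all 4 control libraries. How many of all genes had this separation was not counted, so how unusual it is cannot be said. Of all genes tested in HepG2, 20.2% had both FFA libraries above both controls in mono-culture. For co-culture that share was 17.4%. The FFA libraries of the mono-culture lay far apart, and the lower of them was close to the controls.

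These PLIN2 differences did not pass the threshold over all genes. The FFA effect was 0.74 in mono-culture (SE 0.30, adjusted p = 0.78), 1.09 in co-culture (SE 0.30, adjusted p = 0.20) and 0.92 averaged over culture (SE 0.21, a fold of 1.89, 95% interval 0.43 to 1.40, adjusted p = 0.17). Over 19 alternatives the averaged value lay between 0.51 and 1.16 with adjusted p from 0.018 to 0.31, so its direction was kept. With median-ratio rescaling it was 0.63, where the median of all genes was -0.25 and not -0.07. DESeq2 on the recovered reads called it (0.69, adjusted p = 0.018) among 376 genes in all, where limma called 11, edgeR on the same reads did not (0.51, adjusted p = 0.053), and leaving out mono-culture FFA replicate 1 also brought it past the threshold (1.16, adjusted p = 0.035). The counting error was wide in the shallowest library, where 16 reads gave 322 CPM with a 95% exact binomial interval of 184 to 523 CPM. In the other co-culture FFA library, 58 reads gave 299 to 510 CPM, above the control values.

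In Caco-2, PLIN2 was at 65.7 and 34.1 CPM in mono-culture control, 61.8 and 82.0 in mono-culture FFA, 65.4 and 59.4 in co-culture control, and 82.1 and 67.8 in co-culture FFA. The co-culture groups did not overlap and the mono-culture groups did. The averaged effect was 0.42 (95% interval -0.04 to 0.88, adjusted p = 0.83). The difference between the lines in this effect was 0.50 (95% interval -0.22 to 1.22, adjusted p = 0.66), so a stronger response of PLIN2 in HepG2 was not shown.

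**Figure D3:**
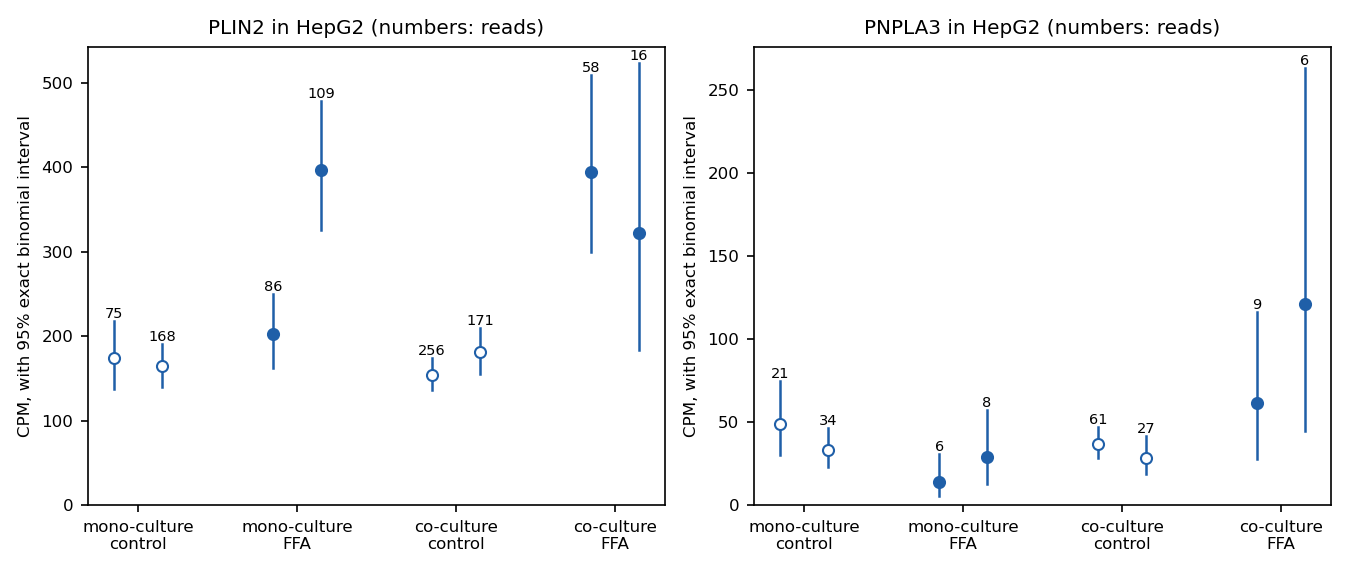
CPM of PLIN2 (left) and PNPLA3 (right) in the 8 HepG2 libraries, with exact binomial 95% intervals that cover counting error only; the number above each bar is the reads counted, and open points are controls. The 4 FFA libraries of PLIN2 lie at 203 to 397 CPM and the 4 controls at 154 to 181 CPM; the 2 PNPLA3 values in co-culture with FFA rest on 9 and 6 reads.

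PLIN3 had its higher values with FFA in most comparisons. In Caco-2 it was at 30.1 and 35.2 CPM in mono-culture control against 54.4 and 46.6 with FFA, and at 29.7 and 31.1 CPM in co-culture control against 39.0 and 39.4 with FFA. The groups did not overlap in either culture, and the averaged effect was 0.48 (SE 0.21, adjusted p = 0.83). In HepG2 it was at 34.8 and 17.6 CPM against 25.9 and 69.1 in mono-culture, where the groups overlapped, and at 34.4 and 53.9 CPM against 68.0 and 141 in co-culture, where they did not. The averaged effect in HepG2 was 0.96 (SE 0.42, adjusted p = 0.36), and the co-culture FFA values rest on 10 and 7 reads. CIDEB went from 24.6 and 24.7 CPM to 34.6 and 41.8 CPM with FFA in Caco-2 mono-culture (0.61, adjusted p = 0.84). In HepG2 its groups overlapped in both cultures, and the co-culture FFA libraries, at 81.6 and 242 CPM, lay on either side of the controls.

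The PNPLA3 values in HepG2 went opposite ways in the 2 cultures, but neither effect nor their difference passed over all genes. In mono-culture it was at 48.7 and 33.2 CPM without FFA and at 14.1 and 29.1 CPM with FFA, an effect of -0.95 (adjusted p = 0.81). In co-culture it was at 36.8 and 28.6 CPM without FFA and at 61.2 and 121 CPM with FFA, an effect of 1.38 (adjusted p = 0.27). The groups did not overlap in either culture, as for 12.3% of all genes with FFA lower in mono-culture and 17.4% with FFA higher in co-culture. The difference between the effects was 2.33 (SE 0.70, adjusted p = 0.68), and the co-culture FFA values came from 9 and 6 reads and for the second of them the exact interval was 44.4 to 263 CPM. In Caco-2, PNPLA3 was at 32.8 and 30.6 CPM in mono-culture control and 17.3 and 22.5 with FFA, and at 41.6 and 28.3 in co-culture control and 30.8 and 22.2 with FFA (averaged effect -0.52, adjusted p = 0.83).

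Among the synthesis genes, DGAT2 in Caco-2 co-culture was at 11.9 and 5.65 CPM in control and 19.5 and 17.2 CPM with FFA (1.06, SE 0.52, adjusted p = 0.86). In mono-culture it was at 10.9 and 10.6 CPM without FFA and 17.3 and 11.2 with FFA. In HepG2 co-culture, DGAT2 had 10 and 5 reads in the control libraries (6.03 and 5.28 CPM) and 0 reads in both FFA libraries. Their floors of 20.4 and 60.4 CPM lie above the control levels, so no fold is given and a loss could not be told from the lack of depth. The same holds for DGAT1, with 7 and 0 reads in HepG2 co-culture control and 0 in both FFA libraries. LPIN1 in HepG2 mono-culture was at 11.6 and 11.7 CPM in control and at 16.5 and 29.1 CPM with FFA, from 7 and 8 reads. In HepG2 co-culture it was at 7.23 and 9.52 CPM in control and held 2 and 0 reads with FFA, under the floors of those libraries. Its averaged FFA effect in HepG2 was -0.21 (adjusted p = 0.93), from 0.86 in mono-culture and -1.28 in co-culture, and no direction is read from the latter. In Caco-2 the averaged effect of LPIN1 was 0.84 (adjusted p = 0.83).

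Of the lipase and its inhibitors, G0S2 in Caco-2 was at 129 and 139 CPM in mono-culture control, 109 and 153 in mono-culture FFA, 139 and 82.0 in co-culture control, and 112 and 80.1 in co-culture FFA. All of these groups overlapped with their controls (averaged FFA effect -0.11, 95% interval -0.51 to 0.29, adjusted p = 0.93). HILPDA in Caco-2 was at 5.48 and 4.70 CPM in mono-culture control, 7.42 and 8.03 in mono-culture FFA, 15.9 and 14.1 in co-culture control and 11.3 and 7.39 in co-culture FFA. These values rest on 2 to 11 reads each. In HepG2 it was at 16.2 and 13.7 CPM in mono-culture control and 9.42 and 7.28 with FFA, and at 7.23 and 4.22 in co-culture control and 13.6 and 0 with FFA. PNPLA2 held 0 to 6 reads in every library, so its FFA response was not detectable at this depth.

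**Figure D4:**
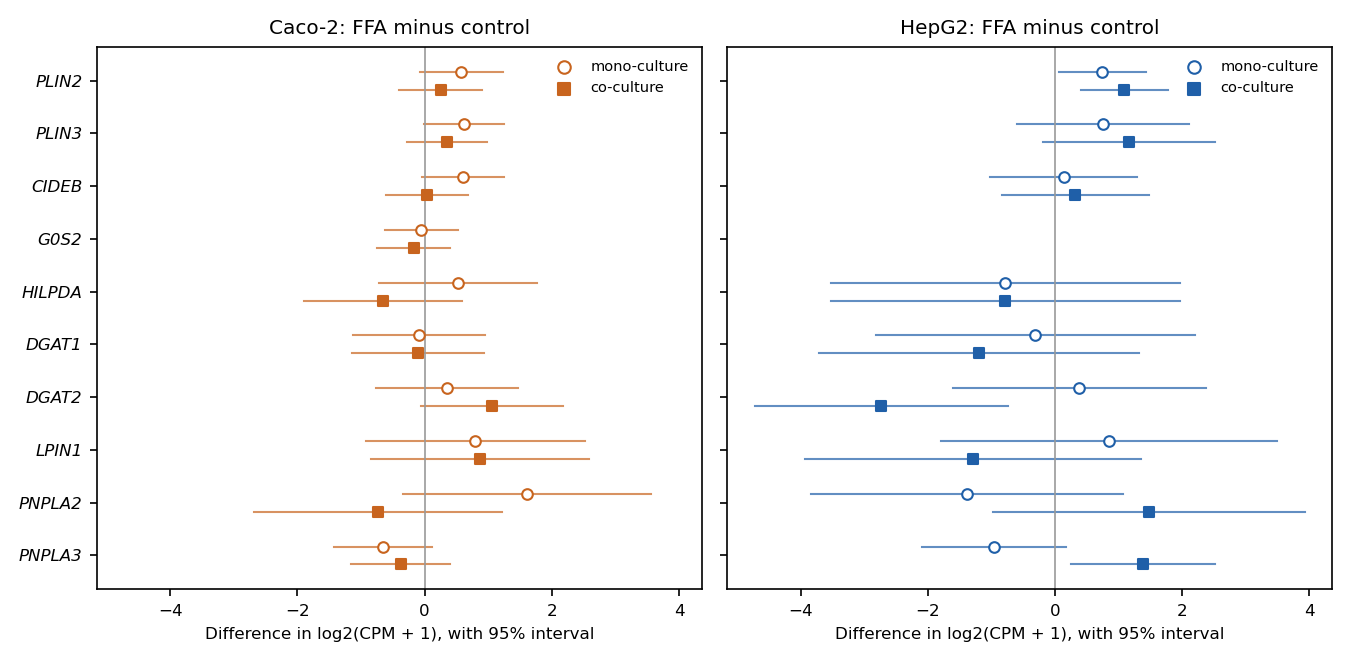
FFA minus control in log2(CPM + 1), with 95% intervals, for the 10 genes in Caco-2 (left) and HepG2 (right); circles are mono-culture and squares co-culture, and G0S2 was below the filter on low values in HepG2. None of these differences passed an adjusted p of 0.05, and the HepG2 intervals of the genes with few reads span several log2 units.

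Counted together, 0 of the 10 genes tested in Caco-2 and 0 of the 9 tested in HepG2 passed in any of the 7 contrasts of a line with limma. With edgeR the counts were 0 throughout, and with DESeq2 only PLIN2 passed, in the averaged FFA effect of HepG2. Over all genes tested, calls were as rare: 0.00647% for FFA in Caco-2 mono-culture, 0.0971% for co-culture in Caco-2 without FFA and equally with FFA, 0.453% for the averaged co-culture effect in Caco-2, 0.0762% for the averaged FFA effect in HepG2, and 0% in the other 9 contrasts. For the difference between the lines in the averaged FFA effect, 0 of 10 genes passed, against 0.0912% of all genes.

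At an unadjusted p under 0.05, the FFA contrasts in Caco-2 held 0 of 10 genes in mono-culture (5.8% of all genes), 0 in co-culture (4.88%) and 1, PLIN3, in the average (4.85%). In HepG2 they held 1 of 9 in mono-culture, PLIN2 (6.26% of all genes), 3 in co-culture, PLIN2, PNPLA3 and DGAT2 (15.9%), and 2 in the average, PLIN2 and PLIN3 (13.8%). In the interaction of FFA and culture, 0 genes passed this mark in Caco-2 (5.02%) and 2, PNPLA3 and DGAT2, in HepG2 (6.94%). No direction is read from DGAT2 in either contrast, since its 0 reads with FFA lie under floors above the control level and its fitted value depends on the pseudocount. The groups did not overlap, with FFA higher, for 5 genes in Caco-2 mono-culture (16% of all genes tested) and 3 in co-culture (15.2%), and with FFA lower for 1 (10.3%) and 2 (14.9%). Of the 5, HILPDA had 3 and 5 reads with FFA against 2 and 4 without, and PNPLA2 had 1 and 3 against 0 and 1. The 2 with FFA lower in co-culture were also HILPDA and PNPLA2. Both genes with these few reads are part of the Caco-2 medians below. In HepG2 the counts were 2 in mono-culture (20.2%) and 4 in co-culture (17.4%) with FFA higher, and 2 (12.3%) and 2 (25.2%) with FFA lower, G0S2 and its single reads included. The median FFA effect of the genes tested was 0.55 in Caco-2 mono-culture against 0.02 over all genes, -0.03 in Caco-2 co-culture against 0, and 0.14 in HepG2 mono-culture against 0.06. In HepG2 co-culture it was 0.32 against -0.26 over all genes, and this last median was 0.23 over genes averaging at least 10 CPM and -0.45 with median-ratio rescaling. The 0.32 includes DGAT1 and DGAT2, whose 0 reads with FFA lie under the floors. Without them it was 1.09, which still rests on the shallow libraries, so no shift of these genes as a set is read from either value.

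Known targets of the fatty acid receptors of the PPAR family and of hypoxia were examined beside these genes. With FFA, 0 of 9 PPAR targets and 0 of 8 hypoxia targets tested in Caco-2, and 0 of 8 and 0 of 7 in HepG2, passed in the averaged effect with limma, against 0% and 0.0762% of all genes. At an unadjusted p under 0.05 there was 1 PPAR target higher in Caco-2, FABP1 (0.33), where 4.85% of all genes passed this mark. In HepG2, where 13.8% did, ACSL3 had a value of 0.77, FABP1 of -0.35 and CPT1A of -1.79. In HepG2, FABP1 was the 1 PPAR target that edgeR and DESeq2 each called. ACSL3 and FABP1 were named after their values were seen. CPT1A was 1 of the 4 preset targets, from a list chosen with earlier results of these data known. CPT1A, which carries fatty acids into mitochondria, had 2.32 and 3.91 CPM in HepG2 mono-culture control and 0 with FFA, where the floors were 7.07 and 10.9 CPM. PDK4 and ANGPTL4, both often used as readouts of fatty acid signalling, held at most 3.22 and 1.17 CPM in any library, and the hypoxia target NDRG1 at most 5.94 CPM, so their response was not detectable at this depth.

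The third question was the effect of the other line. In Caco-2 without FFA, HILPDA was at 15.9 and 14.1 CPM in co-culture against 5.48 and 4.70 CPM in mono-culture, an effect of 1.39 (SE 0.58, adjusted p = 0.43) from 8, 5, 2 and 4 reads. CIDEB was at 37.6 and 39.6 CPM in co-culture against 24.6 and 24.7 CPM in mono-culture (0.63, SE 0.30, adjusted p = 0.50). Neither difference passed. Without FFA, 4 of the 10 genes (CIDEB, HILPDA, DGAT1 and PNPLA2) had co-culture libraries above both mono-culture libraries (22% of all genes tested) and 0 had them below (9.6%). With FFA, 1 gene (DGAT1) had them above (20%) and 2 (PLIN3 and PNPLA2) below (14.6%). At an unadjusted p under 0.05, 1 of the 10 genes, HILPDA, stood out without FFA (10.3% of all genes), 0 with FFA (7.78%) and 0 in the average (11.8%).

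In HepG2 the co-culture effect on PLIN2 was -0.02 without FFA (95% interval -0.70 to 0.67) and 0.33 with FFA (95% interval -0.35 to 1.01). DGAT2 had 10 and 5 reads in co-culture control against 0 and 1 in mono-culture control (2.24, SE 0.87, adjusted p = 1), the only one of the 9 genes under an unadjusted p of 0.05 there (2.61% of all genes). With FFA, PNPLA3 had 61.2 and 121 CPM in co-culture against 14.1 and 29.1 CPM in mono-culture (2.03, SE 0.49, adjusted p = 0.19), and PNPLA2, from 1 read in each co-culture library, was the other gene under that mark (14.7% of all genes). In the average, PLIN3 (0.98), PNPLA3 (0.86) and DGAT1 were under an unadjusted p of 0.05 (7.72% of all genes), each with an adjusted p of at least 0.63. No direction is read from DGAT1, whose 0 reads in the co-culture FFA libraries lie under floors above its level in the other HepG2 libraries. Without FFA, the co-culture libraries lay above both mono-culture libraries for 2 genes (G0S2, on single reads, and DGAT2; 20.5% of all genes tested) and below for 2 (HILPDA and LPIN1; 12.4%). With FFA they lay above for 2 (PNPLA2 and PNPLA3; 12.8%) and below for 2 (DGAT1 and LPIN1; 14.3%). All of the contrasts with FFA use the shallow co-culture FFA libraries.

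Of the 38 further pathway genes tested in Caco-2, 2 passed in the averaged co-culture effect, both higher, against 0.453% of all genes. At an unadjusted p under 0.05, 5 did in that contrast (11.8% of all genes) and 1 to 7 in the other 6 contrasts (4.85% to 10.3%), in none of which a gene passed with adjustment. CES1 was at 118 and 114 CPM in mono-culture control, 141 and 159 in mono-culture FFA, 210 and 223 in co-culture control and 216 and 200 in co-culture FFA, and rose by 0.68 (SE 0.12, adjusted p = 0.025). METTL7B, a droplet-associated methyltransferase-like protein, was at 16.4 and 18.8 CPM in mono-culture control, 22.3 and 30.5 in mono-culture FFA, 53.5 and 50.9 in co-culture control and 48.2 and 46.8 in co-culture FFA, and rose by 1.18 (SE 0.22, adjusted p = 0.034). All 4 co-culture libraries stood above all 4 mono-culture libraries for both genes. Both were named because they passed in this contrast, so this separation adds no support, and the share of all genes with it was not counted. The median over all genes in this contrast was 0.14. Over 19 alternatives the adjusted p ranged from 0.0032 to 0.36 for CES1 and from 0.0049 to 0.26 for METTL7B. Neither passed without Caco-2 mono-culture control replicate 2 (adjusted p = 0.080 for each), and METTL7B did not pass without co-culture control replicate 1 (adjusted p = 0.060). FABP1, a fatty acid binding protein of gut and liver and a PPAR target, was at 699 to 1083 CPM in the mono-culture and 1419 to 2313 CPM in the co-culture libraries, a difference of 1.09 (SE 0.11) with an adjusted p of 0.00024. Its call was lost in 7 of 19 alternatives: with a constant prior variance (adjusted p = 0.29, the highest of the 19), when thinned (0.23), and without either control library of either culture or co-culture FFA replicate 1 (0.057 to 0.095). Its direction was kept in all 19. The summed hepatocyte list was 2573 to 2950 CPM in the Caco-2 mono-culture libraries and 3374 to 3596 CPM in the co-culture libraries, with no marker at 0 in all Caco-2 libraries, and its part in these results was not tested. In HepG2, 0 of 36 further pathway genes passed in any contrast with limma, edgeR or DESeq2. At an unadjusted p under 0.05, 1 to 8 did, against 2.61% to 15.9% of all genes, and the 8 came from the FFA effect in co-culture, where that share was 15.9%.

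The genes whose levels followed PLIN2 most closely differed between the lines. Over the 8 HepG2 libraries, among 2028 genes averaging 50 CPM or more, they were SLC3A2 (Pearson r = 0.984), ENO1 (0.972), PNN (0.971), SF3B4 (0.971) and RAE1 (0.965). Over the 8 Caco-2 libraries, among 1922 such genes, they were ACP1 (0.871), CCNB2 (0.862), AL662899.2 (0.857), SELENOF (0.857) and ORM1 (0.857). These values are descriptions, since the libraries share their depth and treatment and the highest of many correlations are listed.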

How the data were processed

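Polyadenylated RNA of 16 libraries (8 groups of 2) was amplified as PCR-cDNA and sequenced on an Oxford Nanopore MinION. The submitters' processing notes name minimap2 2.22 and GRCh38; the study's methods name RSEM for mRNA-seq after short-read alignment, and whether it was used for the Nanopore libraries is not stated. The deposited values are named TPM, but within each library 99.6% to 100% are whole multiples of 1 step (tolerance 0.1 read), so the authors' values were taken as CPM and whole reads were recovered from the step. Symbols are those of the files, and positions come from GENCODE 44. The members and lists were chosen with earlier results of these data known.

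The filter kept genes averaging 1 CPM or more in a group (15454 in Caco-2, 14430 in HepG2, 17544 for both lines). Values were transformed as log2(CPM + 1), so folds of low genes are understated, and limma 3.58.1 (R 4.3.3) estimated the group means, using a prior variance with a trend (prior df 10.3, 4.32 and 5.60), p values being adjusted by the Benjamini-Hochberg method over all genes tested. Scripts were tested on simulated data. Alternatives used edgeR 4.0.16 and DESeq2 1.42.0 on the recovered reads, other pseudocounts (0.1, 5), filters, scalings and thinning, and left out single libraries. Named were all members and 4 preset PPAR and hypoxia targets. Further pathway genes were named if they passed within a line or were the most abundant of their list. Any other PPAR or hypoxia target was named if it passed within a line. Those with an unadjusted p under 0.05 in an averaged FFA effect were added after the values were seen. The 5 genes most like PLIN2 in each line were also named. Counting intervals and the floor of 3 reads cover counting error only.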

Additional observations from a re-analysis of the deposited data

Results flagged for a closer look

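In 9 cases a contrast went opposite ways in 2 settings, with no overlap between the libraries of the groups compared (FFA against control, or co-culture against mono-culture). In a single contrast, 9.6% to 25.2% of all genes tested had such groups apart in a given direction. The share of all genes with opposite directions in 2 settings was not counted, so whether 9 is many cannot be said. None of the differences between the effects passed over all genes (limma). PNPLA3 in HepG2 was lower with FFA in mono-culture and higher in co-culture (difference 2.33, adjusted p = 0.68), from 6 to 61 reads.

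HILPDA, with at most 14 reads in a library, was flagged 3 times. In Caco-2 it was higher with FFA in mono-culture and lower in co-culture (difference -1.17, adjusted p = 0.82). With FFA in mono-culture it was higher in Caco-2 and lower in HepG2 (-1.30, adjusted p = 0.94), and the co-culture effect without FFA was positive in Caco-2 and negative in HepG2 (-2.67, adjusted p = 1).

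PNPLA2, with at most 6 reads in a library, was also flagged 3 times: for FFA in mono-culture against co-culture in Caco-2 (-2.35, adjusted p = 0.82), for FFA in co-culture in HepG2 against Caco-2 (2.21, adjusted p = 0.47) and for co-culture with FFA in HepG2 against Caco-2 (3.59, adjusted p = 0.22). The synthesis genes followed, with DGAT2 for FFA in co-culture (-3.79, adjusted p = 0.14) and DGAT1 for co-culture with FFA (-2.99, adjusted p = 0.27), HepG2 against Caco-2. Both had 0 reads in the HepG2 co-culture FFA libraries, so these last values depend on the pseudocount.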

How the results depend on the processing

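The 5 line differences (PLIN2, CIDEB, G0S2, DGAT1, DGAT2) kept their direction under all 28 alternatives, and the count of genes past the threshold stayed between 4 (thinned) and 7 (without HepG2 co-culture FFA replicate 1). The alternative without the co-culture FFA groups was chosen after seeing the data and gave 6. Signs turned for PLIN3 (-0.044 without the co-culture FFA groups) and HILPDA (0.032 with edgeR, 0.065 without the co-culture FFA groups and 0.18 without HepG2 co-culture FFA replicate 2). None of these values passed, HILPDA passed at -0.79 without HepG2 co-culture FFA replicate 1, and the cause was not tested.

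Within the lines, the count of 0 changed only in HepG2. DESeq2 gave 1 gene, PLIN2, in the averaged FFA effect. Leaving out 1 replicate gave 0 to 1 in the averaged FFA effect and in the co-culture effect without FFA, 0 to 3 in the FFA effect in co-culture and in the co-culture effect with FFA, and 0 to 2 in the averaged co-culture effect and in the interaction. Counts of 2 and 3 came without co-culture FFA replicate 1, which leaves that group with the library of 49634 reads, assumed to vary like the others. Without co-culture control replicate 1 the gene called was G0S2, on a single read. PNPLA3 passed in the interaction without co-culture FFA replicate 1 (2.82, adjusted p = 0.047). In Caco-2, CES1 and METTL7B lost their call with a pseudocount of 0.1, a constant prior, DESeq2 and thinning, and CES1 also with median-ratio rescaling, all keeping their direction.

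The labels number the replicates. Deviations of same-numbered libraries had correlations of -0.02 to 0.29 in Caco-2 (mean 0.15) and -0.10 to 0.12 in HepG2 (mean 0.05), not all above 0.1, so the numbers were not taken to pair the libraries. As a hint from the data, the block raised the calls over all genes in each Caco-2 contrast, as from 15 to 46 for co-culture without FFA and from 15 to 57 with FFA. With a replicate block, 5 genes passed in the line comparison and 0 within the lines, as without it, and PLIN2 in HepG2 had an averaged FFA effect of 0.92 (adjusted p = 0.18). Counts over all genes moved more: the averaged FFA effect in HepG2 had 11 calls (8 higher), 53 with median-ratio rescaling (4 higher), 77 with quantile normalization (47 higher), 625 with edgeR (47 higher), 376 with DESeq2 (52 higher) and 0 with a pseudocount of 0.1, and the averaged co-culture effect in Caco-2 had 70 calls (49 higher), 118 with quantile normalization (56 higher), 294 with edgeR (149 higher) and 210 with the block. The line comparison had 5322 calls, and 1315 when thinned. Depth limits what HepG2 co-culture with FFA can show: the floor of detection there was 20.4 CPM in replicate 1 and 60.4 CPM in replicate 2.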
